A study of Homo sapiens with 8 samples.

Results

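Fibronectin and 9 further secreted proteins of the extracellular matrix were followed at the RNA level across the 4 groups of a transfection experiment. The genes were taken by name: the rows of the gene count table for FN1, TNC, POSTN, THBS1, THBS2, SPARC, TGFBI, SPOCK1, MGP and NID2 were read, and all 10 were found among 60708 genes. All 10 also passed the filter on low counts that left 16008 genes for testing. The cells were HS578T, an established human breast cancer line. HSF2oe cells had received 25 µg of plasmid encoding exogenous HSF2, a heat shock transcription factor, and Mock cells the same amount of plasmid encoding green fluorescent protein. From 24 h after transfection, cells of both kinds were held for 24 h in assay medium with TGF-β1 at 10 ng/ml (TGF-β) or in assay medium alone (control). Each of the groups HSF2oe TGF-β, HSF2oe control, Mock TGF-β and Mock control had 2 libraries, described as biological replicates. Groups follow the sample titles, since a treatment field in the labels gives the agent by plasmid and disagrees with titles and design. The share of cells that took up plasmid is not given in the sources used here. Nor do these sources say whether the replicates came from separate cultures, and p-values measure only the spread between these libraries.

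Matricellular proteins are secreted into the matrix and act mainly on how cells hold to it and receive signals from it, rather than bearing load. Fibronectin is the structural partner among them: cells pull it into fibrils through integrins, and collagens, tenascin-C and growth factor binding proteins attach to those fibrils. TGF-β is a textbook inducer of fibronectin and of several matricellular genes in mesenchymal cells and in epithelial cells that undergo an epithelial-mesenchymal transition, and HS578T is a line of mesenchymal character.

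RefSeq promoter windows (GRCh38.p14, 250 bases before to 50 after the gene start) were on hand for 8 of the 10 genes, not for SPOCK1 and MGP. The 5 shown belong to the most abundant genes, FN1, POSTN, TGFBI, THBS1 and SPARC, which rose together with TGF-β in both transfections. They are read 5′ to 3′ on the gene's strand, and capitals mark matches, on either strand, to any of 7 motifs: CAGAC (the core of the SMAD-binding element), GTCTAGAC (their palindrome), TGANTCA (AP-1), GAANNTTC and TTCNNGAA (paired units of the heat shock element), TATAAA and CCAAT.
FN1, chr2:215436019-215436318, minus strand: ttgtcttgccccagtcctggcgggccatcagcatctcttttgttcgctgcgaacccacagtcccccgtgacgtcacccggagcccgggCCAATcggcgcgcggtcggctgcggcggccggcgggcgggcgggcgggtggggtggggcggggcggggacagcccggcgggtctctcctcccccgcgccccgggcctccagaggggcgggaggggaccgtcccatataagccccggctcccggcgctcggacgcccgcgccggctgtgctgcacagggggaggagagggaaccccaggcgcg
POSTN, chr13:37598719-37599018, minus strand: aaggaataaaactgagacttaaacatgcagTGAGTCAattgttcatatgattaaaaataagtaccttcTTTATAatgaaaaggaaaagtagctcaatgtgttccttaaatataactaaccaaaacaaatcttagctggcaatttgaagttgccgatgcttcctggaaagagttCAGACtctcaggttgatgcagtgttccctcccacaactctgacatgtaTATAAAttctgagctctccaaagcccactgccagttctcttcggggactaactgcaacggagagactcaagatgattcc
TGFBI, chr5:136028738-136029037, plus strand: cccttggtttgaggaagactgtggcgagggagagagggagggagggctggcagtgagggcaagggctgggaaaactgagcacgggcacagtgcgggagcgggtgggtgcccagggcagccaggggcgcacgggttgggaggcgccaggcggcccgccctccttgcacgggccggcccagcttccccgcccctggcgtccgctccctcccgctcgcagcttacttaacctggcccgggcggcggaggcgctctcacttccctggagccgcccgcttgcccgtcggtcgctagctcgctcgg
THBS1, chr15:39580829-39581128, plus strand: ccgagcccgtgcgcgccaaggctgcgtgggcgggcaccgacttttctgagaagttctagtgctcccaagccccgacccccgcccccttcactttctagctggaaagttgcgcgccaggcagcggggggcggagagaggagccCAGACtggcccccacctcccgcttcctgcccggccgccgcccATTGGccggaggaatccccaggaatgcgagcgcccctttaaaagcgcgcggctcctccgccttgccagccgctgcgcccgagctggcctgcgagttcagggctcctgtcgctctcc
SPARC, chr5:151686866-151687165, minus strand: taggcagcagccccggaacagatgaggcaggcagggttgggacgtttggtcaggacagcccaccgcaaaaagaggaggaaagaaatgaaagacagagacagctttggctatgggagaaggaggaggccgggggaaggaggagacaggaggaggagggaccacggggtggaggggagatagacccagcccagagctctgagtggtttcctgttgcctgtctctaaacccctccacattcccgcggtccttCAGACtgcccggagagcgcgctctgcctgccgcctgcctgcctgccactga

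The SMAD core stood in 5 of the 8 windows, those of TNC, POSTN, THBS1, THBS2 and SPARC, and in 45.3% of all 35116 RefSeq promoter windows. The TGFBI window, from the gene with the largest response to TGF-β, held none of the 7 motifs. GAANNTTC was matched in the NID2 window alone (6.77% of all windows) and TTCNNGAA in none (7.74%). POSTN held the single AP-1 match (7.71% of all windows), and TATAAA was matched in the POSTN and THBS2 windows (11.5%). CCAAT was matched for FN1, THBS1 and NID2 (34.6%), and the SMAD palindrome in none of the 8 (0.202% of all windows). The windows also differed in base composition: 76.7% of the FN1 window was G or C, with 38 CpG, against 39% and 3 CpG in the POSTN window and a median of 58.7% over all windows. A match is a run of letters and not a shown binding site.

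Total gene counts were 32934381 and 23232467 in HSF2oe TGF-β, 28012966 and 29112540 in HSF2oe control, 17427645 and 23726768 in Mock TGF-β, and 25241347 and 34336107 in Mock control. HSF2 itself checks the labels of transfection, not those of TGF-β treatment. It averaged 634 ± 206 CPM in HSF2oe TGF-β and 776 ± 227 CPM in HSF2oe control, against 5.58 ± 0.249 and 7.39 ± 1.35 CPM in the matching Mock groups (SD, n = 2 each). These HSF2 reads hold plasmid and endogenous transcripts together. CPM are counts per 1000000 counts of the library, with library totals scaled by edgeR's TMM factors. The labels call the cells epithelial, yet of 8 epithelial markers EPCAM, KRT19, ESRP1 and ELF3 did not exceed 0.193 CPM in any library and CDH1 did not exceed 1.17 CPM, while KRT18 reached 274 CPM. All 8 epithelial markers summed to 196 to 219 CPM in HSF2oe TGF-β, 209 to 235 in HSF2oe control, 294 to 296 in Mock TGF-β and 264 to 294 in Mock control, and KRT18 and KRT8 fell in HSF2oe against Mock cells with TGF-β (log2 change -0.52 ± 0.11 and -0.41 ± 0.13, adjusted p = 0.00534 and 0.0332). The KRT18 call was lost without HSF2oe TGF-β 1 (-0.41), and that of KRT8 without Mock TGF-β 1 (-0.30), HSF2oe TGF-β 1 (-0.44) or HSF2oe TGF-β 2 (-0.36). Both were lost in edgeR's test with libraries scaled by their totals alone (-0.32 and -0.22, adjusted p = 0.0529 and 0.222). That of KRT8 was also lost with totals without the 10 genes' counts (-0.24, adjusted p = 0.18). The same held with only the groups compared (-0.40, adjusted p = 0.0565) and without a low-count filter (-0.39, adjusted p = 0.0504). All 8 mesenchymal markers passed the filter, VIM at 3180 to 4170 CPM. Those markers summed to 24100 to 25700 CPM in HSF2oe TGF-β, 13500 to 13900 in HSF2oe control, 40100 to 42100 in Mock TGF-β and 18700 to 21000 in Mock control, with COL1A1, also in the third gene list described further on, at 9040 to 36200 CPM. The 7 markers other than COL1A1 summed to 5600 to 5760 CPM in HSF2oe TGF-β, 4450 to 4780 in HSF2oe control, 5510 to 5880 in Mock TGF-β and 4180 to 4460 in Mock control. An adjusted p under 0.05 was reached by 8.26% of all genes with TGF-β in HSF2oe cells and by 13.8% in Mock cells. Between HSF2oe and Mock cells this share was 21.5% with TGF-β and 12.1% without. Of the 8 mesenchymal markers, 4 rose and 1 fell with TGF-β in HSF2oe cells and 5 rose and 1 fell in Mock cells. For HSF2oe over Mock, 1 rose and 3 fell with TGF-β and 0 rose and 2 fell without. PDGFRB among them fell by 1.71 ± 0.15 in HSF2oe against Mock cells with TGF-β and by 1.53 ± 0.15 without (adjusted p = 2.36e-05 and 0.000159), while PRRX1 rose by 0.48 ± 0.11 with TGF-β (adjusted p = 0.00693). The PRRX1 call was lost without Mock TGF-β 1 (0.43, adjusted p = 0.0534) or HSF2oe TGF-β 1 (0.41, adjusted p = 0.0636). CDH2, encoding N-cadherin, and FAP rose with TGF-β in HSF2oe cells by 1.07 ± 0.11 and 0.88 ± 0.13 and in Mock cells by 1.18 ± 0.11 and 1.12 ± 0.13 (adjusted p of 0.000629 or lower). TWIST1, a mesenchymal transcription factor gene, fell with TGF-β by 0.55 ± 0.12 in HSF2oe and by 0.83 ± 0.13 in Mock cells (adjusted p = 0.0125 and 0.000664). The TWIST1 call in HSF2oe cells was lost without HSF2oe control 2 (-0.44, adjusted p = 0.134) or HSF2oe TGF-β 2 (-0.51, adjusted p = 0.0985). VIM, encoding vimentin, had a log2 change with TGF-β of 0.15 ± 0.11 in HSF2oe and 0.14 ± 0.11 in Mock cells and did not pass (adjusted p = 0.521 and 0.491). The sign of VIM turned where libraries were scaled by their totals alone. Of 8 blood and endothelial markers, CD3E was at 0 in every library, and the sum of all 8 was 4.73 to 5.51 CPM in HSF2oe TGF-β, 7.62 to 8.63 in HSF2oe control, 7.37 to 7.55 in Mock TGF-β and 8.7 to 9.62 in Mock control. The sum of all 8 mesenchymal markers was higher with TGF-β and lower in HSF2oe than in Mock cells. Without COL1A1 the sum was higher with TGF-β but not lower in HSF2oe cells. VIM, at 3180 to 4170 CPM, was the largest part of that second sum in every library. PDGFRB, which fell in HSF2oe cells, weighed little in it at 76.5 to 552 CPM, so the sum says little of less abundant markers. The part of all these cell type markers in the changes of the 10 genes was not tested. In these bulk libraries, fewer cells that express a gene and less RNA of it per cell cannot be told apart.

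Fibronectin was the most abundant of the 10 genes per length of exon in each group, and THBS2 the least. Mean levels in Mock control were 1620 ± 191 CPM per kb for FN1, 1210 ± 160 for SPARC, 628 ± 96.3 for POSTN, 386 ± 73.8 for THBS1, 325 ± 47.8 for TGFBI and 80.3 ± 2.4 for SPOCK1 (SD, n = 2). The remaining 4 were far lower, at 8.09 ± 0.769 CPM per kb for TNC, 6.95 ± 0.283 for NID2, 1.14 ± 0.489 for MGP and 0.297 ± 0.0306 for THBS2. Neighbours in this order differed by more than the larger of their SDs, except THBS1 and TGFBI. The lengths are those of the merged annotated exons, 17216 bases for FN1 and 2887 for MGP. With TGF-β the order changed at 1 place: TGFBI took rank 3 of the 10 in both transfections, at 954 ± 15 CPM per kb in HSF2oe TGF-β and 1730 ± 162 in Mock TGF-β, against rank 5 in HSF2oe control at 248 ± 29.5 and in Mock control. Among all 16008 genes tested, FN1 ranked 12 in HSF2oe TGF-β, 16 in HSF2oe control, 9 in Mock TGF-β and 14 in Mock control by this measure, and THBS2 ranked between 13298 in Mock control and 14691 in HSF2oe TGF-β. The 10 genes together took 6.51% and 6.07% of all counts in HSF2oe TGF-β, 4.2% and 4.01% in HSF2oe control, 7.47% and 7.99% in Mock TGF-β and 4.3% and 4.79% in Mock control.

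**Figure D1:**
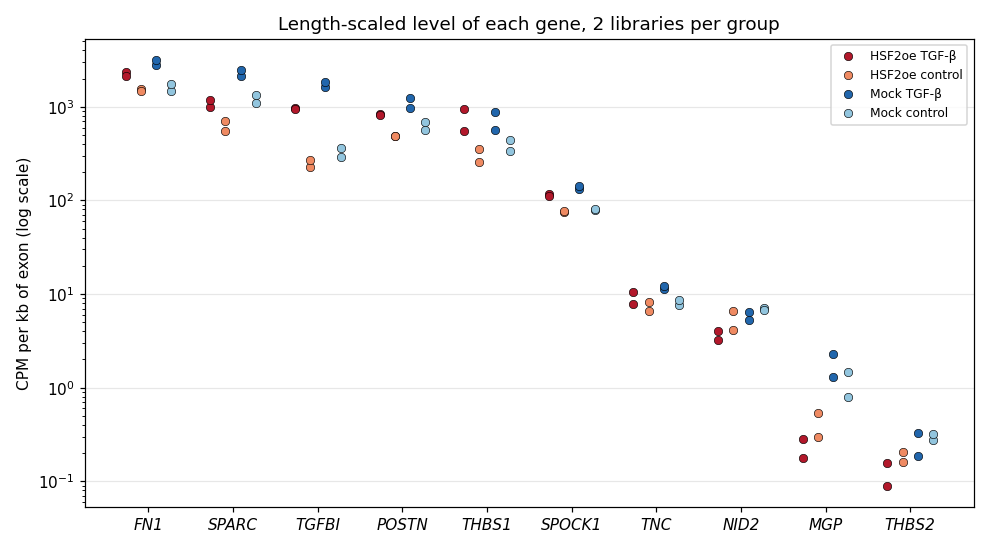
Level of each of the 10 genes in CPM per kb of merged exon (vertical log axis), genes ordered by their mean, with 1 point per library and 4 colours for the groups. FN1, SPARC, TGFBI, POSTN and THBS1 lay above 200 CPM per kb in every library, while MGP and THBS2 lay at or below 2.28 CPM per kb.

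FN1 encodes fibronectin (ENSG00000115414.21, GRCh38 chromosome 2, 215360440 to 215436073, minus strand). It had 40520 and 37030 CPM in HSF2oe TGF-β, 26950 and 25180 in HSF2oe control, 48110 and 54220 in Mock TGF-β and 25600 and 30240 in Mock control. The control libraries of both transfections overlapped, and each TGF-β pair lay above all control libraries. TNC encodes tenascin-C, a large oligomeric glycoprotein that loosens the hold of cells on fibronectin (ENSG00000041982.16, chromosome 9, 115019575 to 115118257, minus strand). Its CPM were 101.2 and 74.93 in HSF2oe TGF-β, 78.74 and 64.16 in HSF2oe control, 110.1 and 118.5 in Mock TGF-β and 72.75 and 83.23 in Mock control. TNC thus overlapped between HSF2oe TGF-β and HSF2oe control, but not between the Mock groups.

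POSTN and TGFBI encode the fasciclin-domain proteins periostin and TGF-β-induced protein, which bind collagens and integrins. POSTN (ENSG00000133110.15, chromosome 13, 37562583 to 37598844, minus strand) had 4583 and 4426 CPM in HSF2oe TGF-β, 2658 and 2690 in HSF2oe control, 5344 and 6836 in Mock TGF-β and 3060 and 3804 in Mock control. Both HSF2oe groups had narrow pairs below the Mock group of the same treatment. TGFBI (ENSG00000120708.17, chromosome 5, 136028988 to 136063818, plus strand) had 7440 and 7277 CPM in HSF2oe TGF-β, 1751 and 2073 in HSF2oe control, 12450 and 14220 in Mock TGF-β and 2248 and 2770 in Mock control. The 4 groups did not overlap, and the highest library held 8.12 times the CPM of the lowest.

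THBS1 and THBS2 encode thrombospondins, multimeric proteins with anti-angiogenic activity; thrombospondin-1 is also known to activate latent TGF-β. THBS1 (ENSG00000137801.11, chromosome 15, 39581079 to 39599466, plus strand) had 8711 and 5046 CPM in HSF2oe TGF-β, 3207 and 2358 in HSF2oe control, 7972 and 5222 in Mock TGF-β and 4012 and 3057 in Mock control. Replicate 1 was the higher library in each of the 4 groups, and the SD came to 19.1% to 37.7% of the group mean, the widest spread among the abundant genes. THBS2 (ENSG00000186340.17, chromosome 6, 169215780 to 169254050, minus strand) had 36 and 15 counts in HSF2oe TGF-β, 36 and 48 in HSF2oe control, 36 and 27 in Mock TGF-β and 53 and 81 in Mock control. It was close to silent, at 0.639 to 2.342 CPM, and 31.2% of its exonic bases are shared with an antisense gene whose own count did not exceed 18. Counting was not stranded, so reads of antisense partners could not be told apart; 9.38% of the exonic bases of THBS1 are shared as well.

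SPARC encodes osteonectin, a collagen-binding protein, and SPOCK1 testican-1, a proteoglycan with a SPARC-like domain. SPARC (ENSG00000113140.11, chromosome 5, 151661096 to 151686975, minus strand) had 4575 and 5478 CPM in HSF2oe TGF-β, 2546 and 3277 in HSF2oe control, 9796 and 11610 in Mock TGF-β and 5096 and 6145 in Mock control. HSF2oe TGF-β libraries overlapped with Mock control libraries, and the Mock TGF-β libraries lay above every other library. SPOCK1 (ENSG00000152377.14, chromosome 5, 136975298 to 137598379, minus strand) had 728.5 and 683 CPM in HSF2oe TGF-β, 468.1 and 480.9 in HSF2oe control, 816.4 and 888.3 in Mock TGF-β and 487.3 and 508.3 in Mock control. Its groups were tight, with an SD of 5.96% of the mean or less.

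MGP encodes matrix Gla protein, a small vitamin K-dependent inhibitor of calcification, and NID2 nidogen-2, which links laminin to collagen IV in basement membranes. MGP (ENSG00000111341.10, chromosome 12, 14880864 to 14885857, minus strand) had 26 and 12 counts in HSF2oe TGF-β, 27 and 50 in HSF2oe control, 58 and 134 in Mock TGF-β and 61 and 151 in Mock control. That is 0.8087 and 0.5112 CPM in HSF2oe TGF-β, 0.8663 and 1.549 in HSF2oe control, 3.774 and 6.588 in Mock TGF-β and 2.284 and 4.281 in Mock control, and all 4 HSF2oe values lay under the lowest Mock value. NID2 (ENSG00000087303.18, chromosome 14, 52004803 to 52069228, minus strand) had 25.85 and 20.62 CPM in HSF2oe TGF-β, 42.45 and 26.71 in HSF2oe control, 41.12 and 34.07 in Mock TGF-β and 45.68 and 43.12 in Mock control. The HSF2oe TGF-β libraries were the lowest 2 of the 8. As 30.0% of the exonic bases of NID2 are shared with RTRAF on the other strand, a gene with up to 1952 counts, its values are uncertain.

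**Figure D2:**
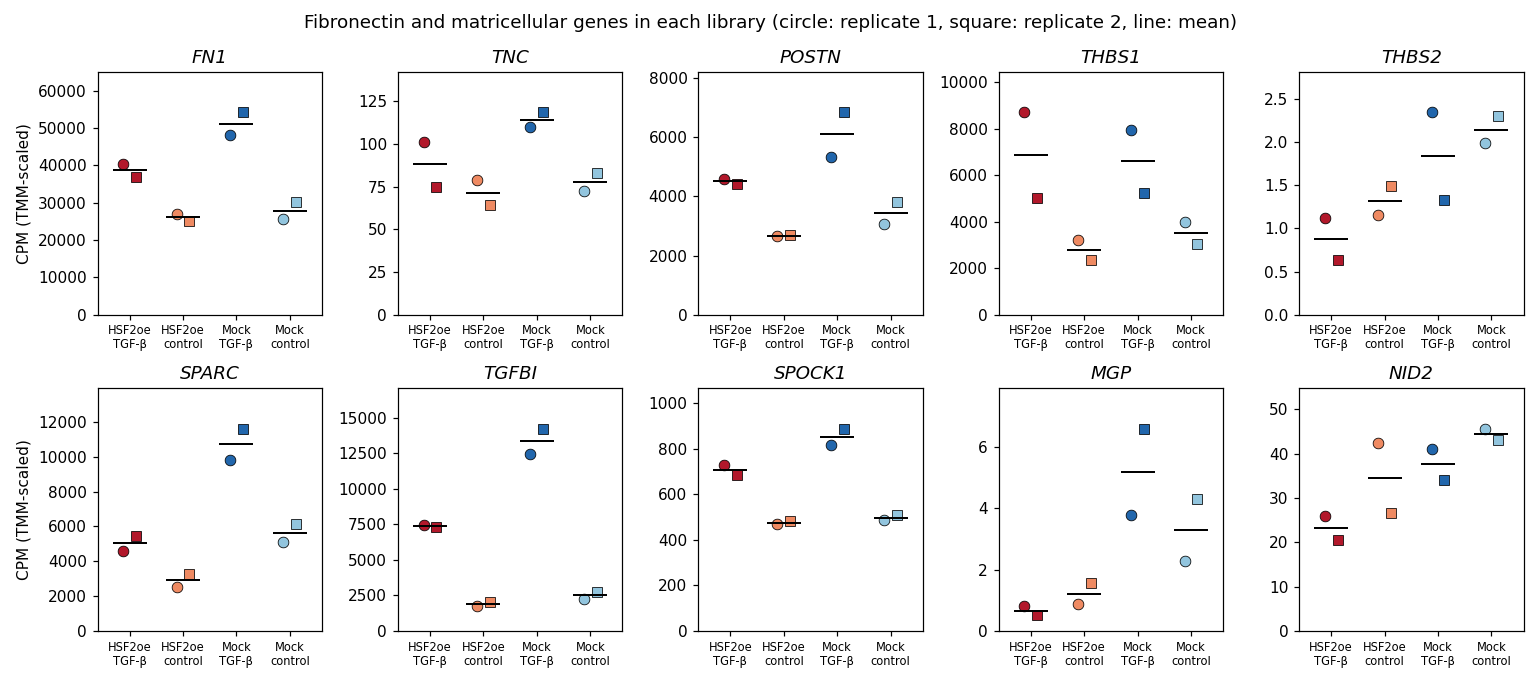
TMM-scaled CPM of each gene (vertical axis from 0, its own scale per panel) in HSF2oe TGF-β, HSF2oe control, Mock TGF-β and Mock control, with a circle for replicate 1, a square for replicate 2 and a line at the mean of 2. TGFBI and SPARC show Mock TGF-β well above HSF2oe TGF-β, at means of 13300 against 7360 CPM for TGFBI, while THBS1 shows similar means of 6600 and 6880 CPM with wide pairs.

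In HSF2oe cells, TGF-β raised 6 of the 10 genes and lowered none, against 4.45% of all 16008 genes raised and 3.82% lowered, or 8.26% in all (edgeR's quasi-likelihood test, Benjamini-Hochberg adjusted p under 0.05). TGFBI rose most, by 1.94 ± 0.14 on the log2 scale or 3.85-fold (± standard error throughout, adjusted p = 3.08e-06), and THBS1 followed at 1.31 ± 0.25 or 2.47-fold (adjusted p = 0.00531). SPARC rose by 0.79 ± 0.16, POSTN by 0.75 ± 0.14, FN1 by 0.57 ± 0.14 and SPOCK1 by 0.57 ± 0.10, with adjusted p between 0.00242 for SPOCK1 and 0.0195 for FN1. TNC had 0.30 ± 0.14 (adjusted p = 0.25). MGP had -0.84 ± 0.47, NID2 -0.57 ± 0.18 and THBS2 -0.55 ± 0.39, and they did not pass either (adjusted p = 0.364, 0.0777 and 0.494). The TGF-β libraries did not overlap with the controls for 6 genes above and 3 below (THBS2, MGP and NID2), against 24.1% and 25.7% of all genes. The 10 genes had a median log2 change of 0.57, and all genes tested -0.01. The FN1 call was lost without HSF2oe control 1, HSF2oe control 2 or HSF2oe TGF-β 1 (0.63, 0.52 and 0.52, adjusted p = 0.0524, 0.103 and 0.0622), with only the groups compared (0.58, adjusted p = 0.0615) and on the deposited log2 CPM (0.57, adjusted p = 0.276). SPARC lost its call without HSF2oe control 1 (0.62) and THBS1 without HSF2oe control 2 (1.10). NID2 gained a call as lower under 6 of 17 alternatives. Among them were the fit without HSF2oe control 2 (-0.87), DESeq2 (-0.57, adjusted p = 0.0373) and totals alone (-0.73, adjusted p = 0.0131).

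In Mock cells, TGF-β raised 7 of the 10 genes and lowered none, against 7.32% of all genes raised and 6.50% lowered, or 13.8% in all (same test). TGFBI again rose most, by 2.41 ± 0.14 on the log2 scale or 5.32-fold (adjusted p = 4.47e-07), and ranked 9 by p among all genes tested. SPARC rose by 0.93 ± 0.16, THBS1 by 0.90 ± 0.25, FN1 by 0.87 ± 0.14, POSTN by 0.83 ± 0.14, SPOCK1 by 0.78 ± 0.10 and TNC by 0.55 ± 0.14. These 6 lay within 1.47-fold to 1.9-fold, and their adjusted p ran from 0.000158 for SPOCK1 to 0.0286 for THBS1. MGP had a log2 change of 0.66 ± 0.36, THBS2 of -0.25 ± 0.37 and NID2 of -0.24 ± 0.18, and none of these passed (adjusted p = 0.281, 0.745 and 0.452). For 7 genes both TGF-β libraries lay above both control libraries and for NID2 below, against 25.7% and 26.9% of all genes. The median log2 change was 0.80 over the 10 genes and -0.00 over all genes tested. The TNC and THBS1 calls were lost when some libraries were dropped in turn, which left 1 library in that group. Both changes stayed above 0. TNC had 0.45 when Mock control 1 was dropped and 0.50 when Mock TGF-β 2 was. THBS1 had 0.71 when Mock control 2 was dropped and 0.56 when Mock TGF-β 1 was. The THBS1 call was also lost with DESeq2 (0.91, adjusted p = 0.128) and on the authors' deposited log2 CPM with limma-trend (0.88, adjusted p = 0.0521), where the FN1 call was lost as well (0.87, adjusted p = 0.0553). NID2 passed as lower where libraries were scaled by their totals alone (-0.50, adjusted p = 0.0443), a scaling that moved the median of all genes to -0.27.

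In the presence of TGF-β, 5 of the 10 genes were lower in HSF2oe than in Mock cells and none was higher, against 11.9% of all genes lower and 9.60% higher, or 21.5% in all (same test). SPARC averaged 5030 ± 639 CPM in HSF2oe TGF-β and 10700 ± 1280 CPM in Mock TGF-β (SD, n = 2 each), and fell by 1.09 ± 0.16 on the log2 scale (adjusted p = 0.000499). TGFBI averaged 7360 ± 116 CPM in HSF2oe TGF-β and 13300 ± 1250 CPM in Mock TGF-β and fell by 0.86 ± 0.14 (adjusted p = 0.000957). MGP fell by 2.95 ± 0.43, to 0.13 of the Mock level (adjusted p = 0.000576), the largest fold among the 10, from counts of 12 to 134 per library. NID2 fell by 0.69 ± 0.19 (adjusted p = 0.0187) and POSTN by 0.44 ± 0.14 (adjusted p = 0.0403). FN1 had -0.40 ± 0.14, TNC -0.37 ± 0.14, SPOCK1 -0.27 ± 0.10 and THBS2 -1.0003 ± 0.40, with adjusted p of 0.0541, 0.0768, 0.064 and 0.0955. THBS1 was the exception in sign, at 0.06 ± 0.25 (adjusted p = 0.895), and its sign turned to -0.37 without HSF2oe TGF-β 1 and to -0.21 without Mock TGF-β 2. Both HSF2oe libraries lay below both Mock libraries for 9 genes and above them for 0, against 30.2% and 29.7% of all genes. The median log2 change was -0.56 over the 10 genes and -0.00 over all genes tested. The SPARC, TGFBI and MGP calls passed with each library left out, while NID2 was lost without Mock TGF-β 1 (-0.55, adjusted p = 0.106) or HSF2oe TGF-β 2 (-0.53, adjusted p = 0.11). POSTN was lost under 9 of 17 alternatives, among them without Mock TGF-β 2 (-0.25, adjusted p = 0.365), HSF2oe TGF-β 1 (-0.44, adjusted p = 0.118), HSF2oe TGF-β 2 (-0.40, adjusted p = 0.12), HSF2oe control 1 (-0.42, adjusted p = 0.0507) and HSF2oe control 2 (-0.42, adjusted p = 0.0518). FN1 passed under 5 of 17 alternatives, among them DESeq2 (-0.40, adjusted p = 0.00431) and the fits without Mock control 1 (-0.39) or Mock control 2 (-0.39). SPOCK1 passed under 2 of 17, among them DESeq2 (-0.28, adjusted p = 0.0291). TNC passed under 3 of 17, among them without HSF2oe TGF-β 1 (-0.59).

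Without TGF-β, HSF2oe cells had less SPARC and MGP RNA than Mock cells; 2 of the 10 genes fell and none rose, against 7.22% of all genes lower and 4.88% higher, or 12.1% in all (same test). SPARC averaged 2910 ± 516 CPM in HSF2oe control and 5620 ± 742 CPM in Mock control (SD, n = 2 each), and fell by 0.95 ± 0.16 on the log2 scale, to 0.518 of the Mock level (adjusted p = 0.00246). This SPARC difference passed with every library left out in turn, at -1.14 to -0.78 over all alternatives. MGP averaged 1.21 ± 0.483 CPM in HSF2oe control and 3.28 ± 1.41 CPM in Mock control and fell by 1.45 ± 0.39 (adjusted p = 0.0289), a call lost without Mock control 2 (-0.91, adjusted p = 0.307) or without HSF2oe control 1 (-1.10, adjusted p = 0.239). TGFBI had -0.39 ± 0.14, POSTN -0.36 ± 0.14, NID2 -0.36 ± 0.18, THBS1 -0.35 ± 0.25 and THBS2 -0.70 ± 0.36, all 5 short of the threshold (adjusted p from 0.0784 to 0.405). DESeq2 called 4 of the 10, with TGFBI (-0.39, adjusted p = 0.0216) and POSTN (-0.36, adjusted p = 0.0486) added. TGFBI passed under 4 of 17 alternatives, POSTN and NID2 under 3 each and THBS1 under 2. Those of TGFBI included the fit without Mock control 1 (-0.54), and those of NID2 the fit without HSF2oe control 1 (-0.73). FN1 had -0.10 ± 0.14, with a 95% interval from -0.40 to 0.20, TNC -0.13 ± 0.14 and SPOCK1 -0.07 ± 0.10. Both HSF2oe libraries lay below both Mock libraries for 7 genes and above them for 0, against 29.0% and 28.5% of all genes. The median log2 change was -0.36 over the 10 genes and -0.00 over all genes tested.

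The comparisons above draw on the same 8 libraries and share their groups, so their values are not independent of each other. Whether the TGF-β effect itself differed between the transfections was tested as a difference of log2 changes, HSF2oe minus Mock. None of the 10 genes passed, nor did any of the 16008 genes tested with edgeR (0% called), of which 977 had an unadjusted p under 0.05; DESeq2 called 23 genes, none of them among the 10. TGFBI had a difference of -0.47 ± 0.19, with a 95% interval from -0.88 to -0.05, and MGP of -1.49 ± 0.59, with an interval from -2.77 to -0.22, and these 2 were the ones with an unadjusted p under 0.05 (0.0303 and 0.0254, adjusted p = 0.805 and 0.798). FN1 had -0.30 ± 0.19, with an interval from -0.72 to 0.12, and SPARC -0.14 ± 0.22, with an interval from -0.61 to 0.33. THBS1 stood alone above 0, at 0.41 ± 0.35 with an interval from -0.35 to 1.16, and had -0.02 without HSF2oe TGF-β 1. The remaining 5 differences lay between -0.33 for NID2 and -0.07 for POSTN. Equal TGF-β effects were not shown by intervals of this width.

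**Figure D3:**
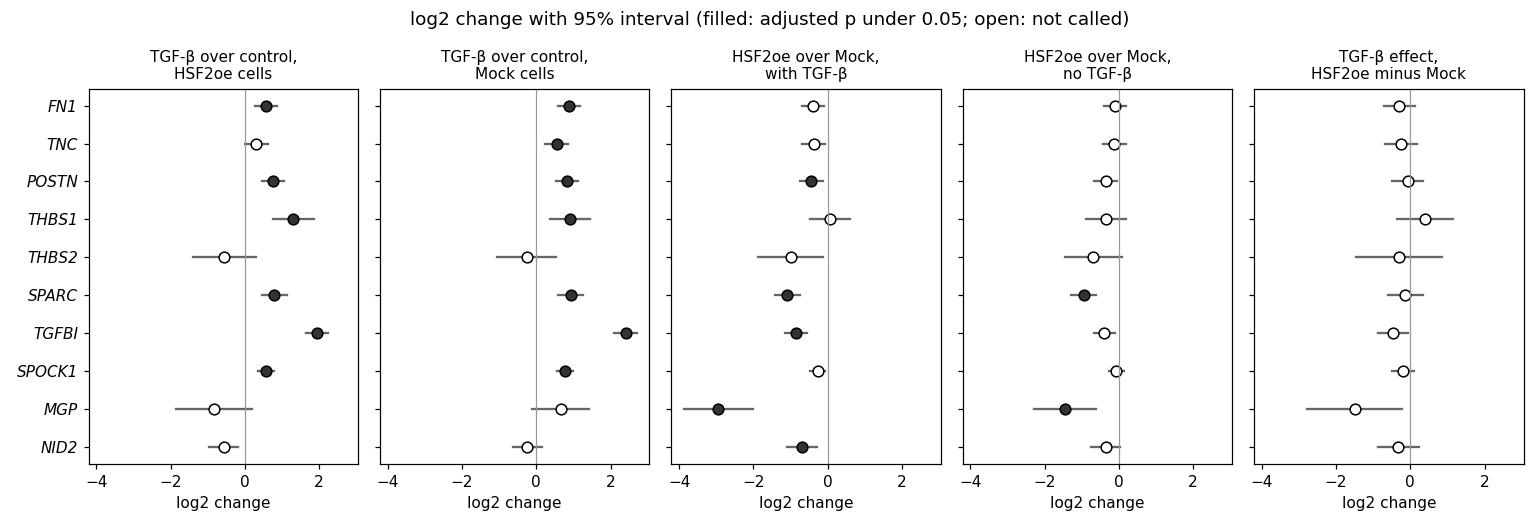
log2 change of each of the 10 genes in the 4 comparisons and the difference of the TGF-β effects (horizontal axes, log2 scale), with 95% intervals from the edgeR fit; filled points passed an adjusted p of 0.05. The filled points lie right of 0 in both TGF-β panels (6 genes in HSF2oe cells, 7 in Mock cells) and left of 0 in both HSF2oe panels (5 genes with TGF-β, 2 without), and the last panel has none.

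Among 48 other matricellular and matrix glycoprotein genes, 32 were tested. This list and those that follow were chosen with earlier results of these data known, so their shares of calls are no independent result. With TGF-β in HSF2oe cells, 8 rose and 4 fell with a median log2 change of 0.21, and in Mock cells 13 rose and 3 fell with a median of 0.50. Calls thus came to 12 of the 32 in HSF2oe cells, against 8.26% of all genes, and to 16 of the 32 in Mock cells, against 13.8%. CCN2, connective tissue growth factor, rose by 2.55 ± 0.15 in HSF2oe and 2.05 ± 0.15 in Mock cells (adjusted p = 7.64e-07 and 2.22e-06). TNFAIP6, a hyaluronan-binding protein, rose by 1.66 ± 0.19 in HSF2oe and 1.33 ± 0.19 in Mock cells (adjusted p = 9.11e-05 and 0.000326). CCN3, of the same family as CCN2, went the other way and fell by 1.27 ± 0.11 in HSF2oe and by 1.96 ± 0.11 in Mock cells (adjusted p = 1.02e-05 and 3.28e-07). AEBP1, a collagen-binding protein, rose by 0.83 ± 0.11 in HSF2oe and 0.67 ± 0.10 in Mock cells (adjusted p = 0.000289 and 0.000723). PXDN, a peroxidase that crosslinks collagen IV, rose by 0.58 ± 0.11 in HSF2oe and 0.83 ± 0.11 in Mock cells (adjusted p = 0.00488 and 0.000222). For HSF2oe over Mock, 14 fell and 1 rose with TGF-β (median -0.55, 46.9% called against 21.5% of all genes). Without it 12 fell and 1 rose (median -0.40, 40.6% called against 12.1%). With TGF-β, EDIL3 (-1.04 ± 0.11), MATN2 (-1.30 ± 0.15), the hemicentin gene HMCN1 (-1.11 ± 0.15) and THBS3 (-1.25 ± 0.17) were lower in HSF2oe than in Mock cells (adjusted p = 9.01e-05, 0.00016, 0.000372 and 0.000389). Without TGF-β these included AEBP1 (-0.72 ± 0.11), EDIL3 (-0.74 ± 0.11), an integrin-binding protein, the cartilage matrix gene MATN3 (-0.78 ± 0.12) and the thrombospondin THBS3 (-0.92 ± 0.17), with adjusted p of 0.00137, 0.00146, 0.00175 and 0.00412. Calls of this list were fewer in HSF2oe cells without HSF2oe control 1 or HSF2oe TGF-β 2, and in Mock cells without Mock control 1 or Mock TGF-β 2. For HSF2oe over Mock without TGF-β they were fewer without Mock control 2 or HSF2oe control 1, where THBS3 was lost too (-0.61 and -0.86). Calls over all genes were fewer in each of these fits as well.

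Of 23 receptor genes for these proteins, 19 were tested. TGF-β raised 5 and lowered 1 in HSF2oe cells and raised 8 and lowered 2 in Mock cells (median log2 change 0.13 and 0.27). That is 31.6% and 52.6% of the list, against 8.26% and 13.8% of all genes. ITGA5, the alpha chain of the classical fibronectin receptor, rose by 0.81 ± 0.11 in HSF2oe and by 1.12 ± 0.11 in Mock cells (adjusted p = 0.000529 and 2.96e-05). ITGAV and ITGB3, whose chains pair to bind fibronectin, periostin and thrombospondins, rose by 0.67 ± 0.12 and 0.94 ± 0.14 in HSF2oe and by 1.05 ± 0.12 and 1.03 ± 0.14 in Mock cells (adjusted p = 0.00334, 0.000851, 7.79e-05 and 0.000268). The syndecan gene SDC1 rose by 0.65 ± 0.10 in HSF2oe and 0.50 ± 0.10 in Mock cells (adjusted p = 0.000935 and 0.0037). In Mock cells the SDC1 call was lost without Mock control 1 (0.43, adjusted p = 0.0587) or Mock TGF-β 2 (0.44, adjusted p = 0.0521). LRP1, an endocytic receptor of thrombospondins, rose by 0.49 ± 0.12 in HSF2oe and 0.91 ± 0.12 in Mock cells (adjusted p = 0.0248 and 0.000253). Its call in HSF2oe cells was lost with any 1 of the 4 HSF2oe libraries left out (0.43 to 0.55, adjusted p = 0.0662 to 0.166). HSF2oe over Mock gave 3 rises and 7 falls with TGF-β and 2 rises and 6 falls without it (median -0.32 and -0.15). That is 52.6% and 42.1% of the list, against 21.5% and 12.1% of all genes. In HSF2oe against Mock cells with TGF-β, LRP5 fell by 0.76 ± 0.09, LRP1 by 0.999 ± 0.12, ITGAV by 0.82 ± 0.12 and SDC2 by 0.92 ± 0.14 (adjusted p from 0.000188 to 0.000824). Without TGF-β, PLAUR, the urokinase receptor, rose by 0.81 ± 0.14 (adjusted p = 0.00271), while LRP5, LRP1 and ITGB8 fell by 0.48 ± 0.09, 0.57 ± 0.12 and 1.07 ± 0.23 (adjusted p = 0.00533, 0.00997 and 0.0101). Those 3 falls were lost without Mock control 2 (adjusted p = 0.0565, 0.129 and 0.0923), and those of LRP1 and ITGB8 also without HSF2oe control 1 (adjusted p = 0.0562 and 0.126), and that of LRP1 without HSF2oe control 2 (adjusted p = 0.0638). Receptor calls for HSF2oe over Mock without TGF-β were fewer without Mock control 2, HSF2oe control 1 or HSF2oe control 2. With TGF-β they were fewer without Mock TGF-β 2 or HSF2oe TGF-β 1. The TGF-β comparison in Mock cells had fewer receptor calls without Mock control 1 or Mock TGF-β 2. Over all genes, calls were fewer in each of these fits as well.

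The third list held 24 genes of fibrillar and basement membrane matrix, crosslinkers and enzymes that act on the 10 genes' products, and 23 were tested. TGF-β raised 12 in HSF2oe and 14 in Mock cells and lowered none in either (median log2 change 0.44 and 0.64). These calls came to 52.2% and 60.9% of the list, against 8.26% and 13.8% of all genes. COL4A1, a basement membrane collagen gene, rose by 1.58 ± 0.13 in HSF2oe and by 1.66 ± 0.14 in Mock cells (adjusted p = 1.01e-05 and 5e-06). COL4A2, which encodes its partner chain, rose by 0.88 ± 0.12 in HSF2oe and by 1.16 ± 0.12 in Mock cells (adjusted p = 0.000378 and 2.96e-05). COL1A1, of fibrillar collagen, rose by 1.08 ± 0.12 in HSF2oe and by 1.19 ± 0.13 in Mock cells (adjusted p = 0.000112 and 3.91e-05). COL5A1 rose by 1.05 ± 0.13 in HSF2oe and 1.14 ± 0.13 in Mock cells (adjusted p = 0.000246 and 7.95e-05). TGM2, the transglutaminase that crosslinks fibronectin, rose by 0.70 ± 0.13 in HSF2oe and 1.54 ± 0.13 in Mock cells (adjusted p = 0.00464 and 9.3e-06). The TGM2 call in HSF2oe cells was lost without HSF2oe control 2 (0.53, adjusted p = 0.0639). For HSF2oe over Mock, 14 fell and 1 rose with TGF-β, and 10 fell and 0 rose without it (median -0.52 and -0.31). These calls came to 65.2% and 43.5% of the list, against 21.5% and 12.1% of all genes. COL3A1, encoding a fibrillar collagen, fell by 1.22 ± 0.17 with TGF-β and by 1.15 ± 0.17 without (adjusted p = 0.000387 and 0.00137). COL5A2 fell by 0.95 ± 0.12 with TGF-β and by 0.76 ± 0.12 without, COL1A1 by 0.88 ± 0.12 with and 0.77 ± 0.12 without, and COL5A1 by 0.95 ± 0.13 with and 0.86 ± 0.13 without (adjusted p of 0.00221 or lower). BMP1, the proteinase that trims procollagens, was lower by 0.73 ± 0.10 in HSF2oe than in Mock cells, both with TGF-β (adjusted p = 0.000382). HSPG2, encoding perlecan, had -0.92 ± 0.12 in the same comparison (adjusted p = 0.000216). Calls of this list for HSF2oe over Mock without TGF-β were fewer without Mock control 2 or HSF2oe control 1. Those with TGF-β in HSF2oe cells were fewer without HSF2oe control 2. Calls over all genes were also fewer in each of these fits. The medians over all genes tested were -0.01 with TGF-β in HSF2oe cells and -0.00 in the other comparisons.

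**Figure D4:**
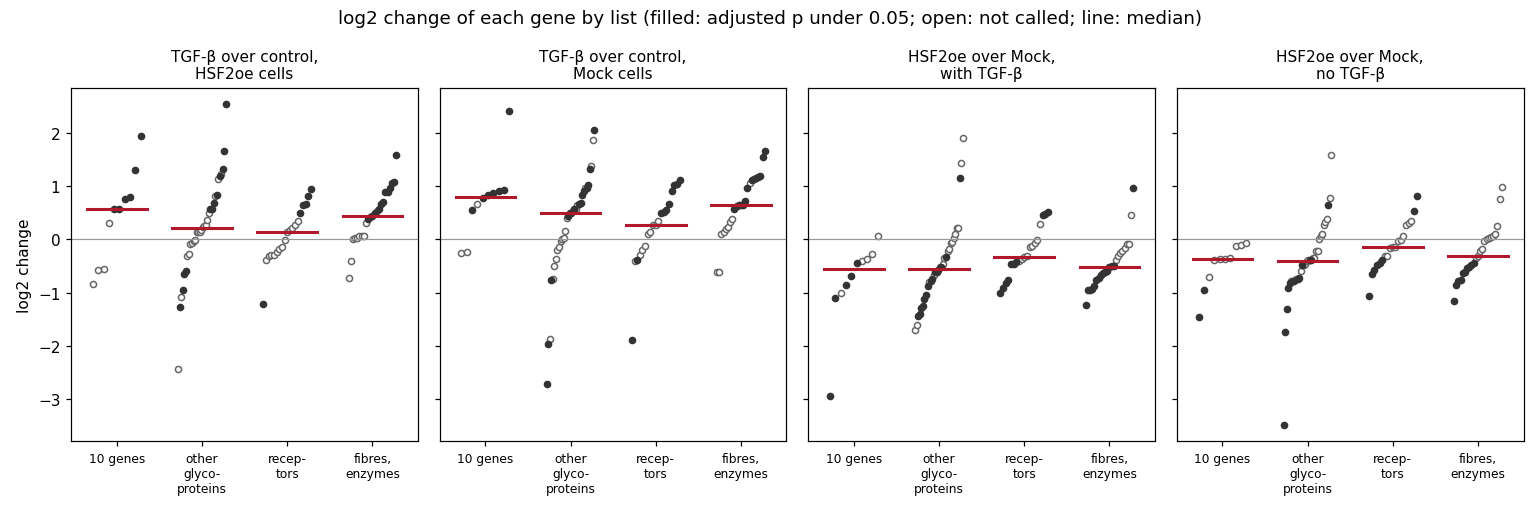
log2 change (vertical axis) of every tested gene of 4 lists in the 4 comparisons: the 10 genes, 32 other glycoprotein genes, 19 receptor genes and 23 genes of fibres and enzymes, with filled points past an adjusted p of 0.05 and a line at the median. The medians lie above 0 in both TGF-β panels and below 0 in both HSF2oe panels, and those of the 10 genes are 0.57 and 0.80 with TGF-β in HSF2oe and Mock cells.

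Of 18 genes of the TGF-β pathway, all tested, 8 rose and 2 fell with TGF-β in HSF2oe cells (55.6% called, against 8.26% of all genes) and 11 rose and 2 fell in Mock cells (72.2%, against 13.8%). PMEPA1 rose by 1.83 ± 0.14 in HSF2oe and by 2.11 ± 0.14 in Mock cells (adjusted p = 3.98e-06 and 8.2e-07). LTBP2, of the latent TGF-β binding protein family, rose by 1.62 ± 0.13 in HSF2oe and by 2.05 ± 0.13 in Mock cells (adjusted p = 5.48e-06 and 6.53e-07). TGFB1, the gene of the ligand, rose by 1.04 ± 0.12 in HSF2oe and by 1.27 ± 0.12 in Mock cells (adjusted p = 8.54e-05 and 1.39e-05). For HSF2oe over Mock with TGF-β, 1 rose and 3 fell: TGFB3 fell by 2.36 ± 0.46, TGFB2 by 0.35 ± 0.10 and TGFB1 by 0.36 ± 0.11, while ID1 rose by 1.06 ± 0.22 (adjusted p = 0.0032, 0.0204, 0.0391 and 0.00471). These 4 calls, 22.2% of the list, lay near the 21.5% of all genes called in this comparison. The list had no call when Mock TGF-β 2 was left out and fewer when Mock TGF-β 1 was. Calls over all genes were fewer in both fits as well. Without Mock TGF-β 2, TGFB3 had -1.71 (adjusted p = 0.0506) and ID1 0.72 (adjusted p = 0.0709). TGFB2 was also lost without Mock TGF-β 1, HSF2oe TGF-β 1 or HSF2oe TGF-β 2 (adjusted p = 0.13, 0.0664 and 0.129), and TGFB1 without Mock TGF-β 1, HSF2oe control 1, HSF2oe control 2 or HSF2oe TGF-β 1 (adjusted p = 0.0642, 0.0502, 0.051 and 0.281). For HSF2oe over Mock without TGF-β, 3 rose and 2 fell, with SMAD7, an inhibitor of the pathway, at 0.71 ± 0.14, the receptor gene TGFBR2 at 0.39 ± 0.12 and the ligand gene TGFB2 at -0.46 ± 0.10 (adjusted p = 0.00613, 0.0464 and 0.00877). These 5 calls were 27.8% of the list, against 12.1% of all genes. The list had no call without HSF2oe control 1 and fewer without Mock control 2, and calls over all genes were fewer in both fits as well. TGFBR2 was lost with any 1 of the 4 control libraries left out (0.27 to 0.53). Without HSF2oe control 1, SMAD7 had 0.46 (adjusted p = 0.0933) and TGFB2 -0.42 (adjusted p = 0.101), and without Mock control 2 TGFB2 had -0.47 (adjusted p = 0.0612).

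By the root mean square difference of mean-centred log2 CPM over the 8 libraries, FN1 was closest among the 10 to SPOCK1 (0.08) and then to POSTN (0.11), and TGFBI and MGP were the most unlike pair (1.39). Among the 11677 genes whose log2 CPM averaged 1 or more, the gene closest to FN1 was WNT5A (0.04), followed by its antisense gene WNT5A-AS1 (0.05), which unstranded counting does not fully separate from it. SPOCK1 was closest to SPTLC2 (0.04) and NEGR1 (0.04), TNC to MMP14 (0.06) and SEL1L (0.07), and POSTN to BMPR2 (0.09) and P4HA2 (0.10). SPARC was closest to ABHD4 (0.09) and SLC1A4 (0.10), and TGFBI to AMZ1 (0.20) and ABCA1 (0.21). CNTNAP1 stood at 0.15 from NID2. THBS1 had THBS1-IT1, a lncRNA gene, and PCDH9 at 0.22 each. MGP had no close neighbour: SFRP4 stood at 0.37 and TMEM119 at 0.43, and THBS2 had RAB20 at 0.17 and CYGB at 0.23. SFRP4, a secreted Wnt antagonist, had 1.21 and 1.41 CPM in HSF2oe TGF-β and 1.64 and 2.45 in HSF2oe control. In Mock TGF-β it had 6.64 and 11 CPM, and in Mock control 7.6 and 9.75. Its 4 HSF2oe values lay under the lowest Mock value. The gene was picked for its likeness to MGP over these same 8 libraries, so this shared order is no separate result.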

How the data were processed

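RNA of 8 libraries was analysed from 2 deposited tables. The authors' gene counts came, per the file headers, from featureCounts 2.0.1 run on read pairs with GENCODE 38 and without a strand setting; the library kit in the labels is a stranded one. The submitters' processing notes list STAR 2.7.9a, edgeR 3.34.1 and GRCh38. The second table holds log2 CPM deposited by the authors for 13169 genes, all 10 genes included. Groups follow the sample titles, because a treatment field in the labels disagrees with the titles and the design text.

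The counts were filtered with filterByExpr, scaled by TMM factors (0.857 to 1.11) and fitted once for the 4 group means by edgeR 4.0.16 (R 4.3.3), with 4 residual and 9.21 prior degrees of freedom. The quasi-likelihood tests were 2-sided, and p-values were adjusted by Benjamini-Hochberg over 16008 genes (threshold 0.05). Standard errors are the log2 change over the square root of F. A count of 0 would allow 3 counts, or 0.0851 to 0.195 CPM, as counting error alone. Replicate libraries were distinct: the chi-square of their counts per degree of freedom was 12.5 to 26.8. Of 17 alternatives, 1 used the Wald test of DESeq2 1.42.0, 1 the RLE size factors that DESeq2 defines (computed in edgeR) and 1 limma 3.58.1. The text names the 10 genes, up to 4 called genes per list and comparison by smallest p, and the 2 nearest genes of each; called blood and endothelial markers, at most 4.24 CPM each, are left unnamed, and 2 other genes of this rule are not reported here. TWIST1, VIM and the second comparison of a gene named for 1 were added after their values were seen. Genes, lists and motifs were chosen with earlier results of these data known.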

Additional observations from a re-analysis of the deposited data

How the results depend on the processing

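Of 840 repeats of the 10 genes' log2 changes over 17 settings, 764 kept their direction and side of the threshold, 30 lost a call, 29 gained one and 17 turned in sign, none of these 17 a called change. Scaling by library totals alone moved the median of all genes to -0.17 with TGF-β in HSF2oe cells, -0.27 in Mock cells, 0.19 for HSF2oe over Mock with TGF-β and 0.09 without it. The calls then split, in that order, into 452 up and 1592 down (2044 in all), 608 up and 3884 down (4492), 3519 up and 1073 down, and 1431 up and 807 down, and TNC and THBS1 in Mock cells (0.29 and 0.64) and POSTN for HSF2oe over Mock with TGF-β (-0.24) were lost. Totals without the 10 genes' counts gave 3690 calls in Mock cells. SPOCK1 for HSF2oe over Mock without TGF-β turned to 0.0223 and 0.0155 under these 2 scalings, and the POSTN difference of TGF-β effects to 0.0257 and 0.0101. VIM with TGF-β turned to -0.0151 in HSF2oe cells under totals alone, and to -0.126 and -0.0774 in Mock cells under the 2 scalings.

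The replicate numbers come from the titles and are not said to pair libraries; deviations of replicate 1 correlated between groups at 0.05 to 0.163, over 2 numbers only. With the replicate number as a block, 2366 of 16008 genes were called for TGF-β in HSF2oe cells and 3350 in Mock cells. For HSF2oe over Mock, 4900 genes were called with TGF-β and 3614 without, and 78 for the difference. Of the 10 genes, 8 were called for HSF2oe over Mock with TGF-β and 6 without, and no call of the 10 was lost. Without a low-count filter, 6 of the 10 were called for HSF2oe over Mock without TGF-β, beside 2441 of 31802 genes. That setting called 83 genes for the difference. DESeq2 called 4 of the 10 for HSF2oe over Mock without TGF-β, beside 1899 of 16008 genes, and 23 genes for the difference. The cause of these shifts was not tested.

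Leaving out each library in turn, 3 to 6 of the 10 genes were called for HSF2oe over Mock with TGF-β and 1 to 3 without. Calls over all genes ranged from 1509 to 3331 and from 368 to 1993 in these comparisons, and from 673 to 1334 with TGF-β in HSF2oe and 1144 to 2266 in Mock cells. Signs turned for uncalled changes: HSF2oe over Mock without TGF-β in FN1 (-0.217 to 0.0266) and TNC (-0.283 to 0.0198), with TGF-β in THBS1 (-0.37 to 0.41), TGF-β in Mock cells in THBS2 (-0.69 to 0.12), and the difference of TGF-β effects in NID2 (-0.619 to 0.057), POSTN (-0.24 to 0.12), SPARC (-0.30 to 0.0561), THBS1 (-0.0219 to 0.752) and THBS2 (-0.77 to 0.14). At 12 to 151 counts per library, depth limits MGP and THBS2 most.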
